A study of Mus musculus with 2 samples.

Results

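The Tnfaip8 family, also known as the TIPE family, was followed gene by gene in single cells of the mouse ileal epithelium. Its members are *Tnfaip8*, which encodes TIPE0, *Tnfaip8l1*, which encodes TIPE1, *Tnfaip8l2*, which encodes TIPE2, and *Tnfaip8l3*, which encodes TIPE3. They were taken by gene symbol, with no use of measured values, and make up 4 of the 27998 genes counted. Proteins of this family share a TIPE homology domain that folds around a hydrophobic cavity and binds phospholipids, and they have been linked to phosphoinositide signaling, cell survival and inflammation. TIPE2 is best known as a brake on immune receptor signaling in lymphoid and myeloid cells, TIPE3 as a transfer protein for phosphoinositides, and TIPE0 as a protein induced by TNF through NF-kB.

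The data were 2 droplet-based sc-RNASeq libraries from untreated C57BL/6 mice aged 8 weeks, 1 from wild type (WT) animals and 1 from animals with the labelled genotype TNFAIP8-/-, called *Tipe0*-/- here. The genotype stands for loss of both alleles, and the exons removed are not given in the sources used here. The cells of several mice were pooled for each genotype, so there is 1 library per genotype and no replicate. No test between genotypes was possible, and every interval below covers counting error only. The labels call the tissue ileal enterocytes but also speak of enteroids, which are epithelial cultures, whereas the methods describe isolated enterocytes. The libraries also held goblet, Paneth, tuft, stem, cycling and lymphocyte-like cells.

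Each captured mRNA molecule carries a unique molecular identifier (UMI), and levels are given as UMIs per 1000000 UMIs of the cells concerned (CPM). Because the kit counts 1 tag at the 3′ end of each molecule, CPM values of different members can be read side by side without a length correction, although capture can still differ between genes. There were 38127808 UMIs over 3402 WT cells (median 7760 per cell) and 23897126 over 2006 *Tipe0*-/- cells (median 7307.5). Mitochondrial genes took 6.59% and 8.56% of the UMIs. The libraries shared 9 cell barcodes. Across the 11665 genes with at least 50 UMIs, the median log2 ratio of *Tipe0*-/- over WT was 0.15. Intervals of the members are read against 0 below. With this median subtracted, their library-wide log2 ratios were -2.18 for *Tnfaip8*, -0.08 for *Tnfaip8l1*, -0.41 for *Tnfaip8l2* and -0.80 for *Tnfaip8l3*.

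The members lie on different chromosomes of GRCm38, the build called mm10 in the files. *Tnfaip8* spans chromosome 18 from 49979427 to 50107173 on the plus strand and has 13 annotated transcripts, 9 of them coding. *Tnfaip8l1* spans chromosome 17 from 56162477 to 56173955 on the plus strand. *Tnfaip8l2* spans chromosome 3 from 95139521 to 95142360 on the minus strand, and *Tnfaip8l3* spans chromosome 9 from 54023405 to 54068388 on the minus strand. Their coding sequences are short and of similar length, with 636 bases in *Tnfaip8*, 558 in *Tnfaip8l1*, 552 in *Tnfaip8l2* and 612 in *Tnfaip8l3*. In the coding transcript compared for each gene, the last coding exon held 88.5% of the coding bases of *Tnfaip8*, 91.5% of those of *Tnfaip8l3* and 100% of those of the other two. Aligned coding sequences were identical at between 59.7% of bases, for *Tnfaip8l2* and *Tnfaip8l3*, and 67.0% of bases, for *Tnfaip8* and *Tnfaip8l3*. At that distance the paralogs are not near-identical copies. Noncoding genes overlap all members but *Tnfaip8l2* on the opposite strand, and none of these is among the genes counted.

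*Tnfaip8* itself was counted first, since it checks the labels. It had 372 UMIs in WT and 57 in *Tipe0*-/- cells, which is 9.76 CPM (exact 95% Poisson interval 8.79 to 10.8) against 2.39 CPM (1.81 to 3.09). The intervals did not overlap. The log2 ratio, taken after 0.5 was added to each sum, was -2.02 (-2.46 to -1.63), and the level in the knockout was 24.4% of that in WT. Of all genes, 0.514% had a lower ratio. Lymphocyte-like cells were scarcer in the knockout library, and without them the log2 ratio was -1.94. *Tnfaip8* was thus reduced in the library labelled as the knockout, and it was not at 0.

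None of the 3 paralogs was at least 2-fold different between the libraries. *Tnfaip8l1* had 499 UMIs in WT and 330 in *Tipe0*-/- cells, or 13.1 CPM (12.0 to 14.3) against 13.8 CPM (12.4 to 15.4), and its log2 ratio was 0.08 (-0.13 to 0.28). *Tnfaip8l2* was the scarcest member, with 71 and 37 UMIs, or 1.86 CPM (1.45 to 2.35) and 1.55 CPM (1.09 to 2.13). Its log2 ratio of -0.26 had a wide interval from -0.88 to 0.33, so a change smaller than that was not detectable at this depth. *Tnfaip8l3* had 409 and 163 UMIs, or 10.7 CPM (9.71 to 11.8) and 6.82 CPM (5.81 to 7.95). It was the only paralog whose intervals did not overlap between the libraries, with a log2 ratio of -0.65 (-0.92 to -0.39), and 4.51% of all genes had a lower ratio.

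The share of cells with a UMI was compared after every cell was thinned at random to 3000 UMIs, which removes differences in depth. A single random draw was used, and the intervals do not cover the scatter between draws. For *Tnfaip8* it was 3.29% in WT (Clopper-Pearson 95% interval 2.72 to 3.95%) against 0.897% (0.533 to 1.41%) in the knockout, and 8.85% against 2.64% without thinning. For *Tnfaip8l1* the thinned shares were 3.76% and 3.29%, for *Tnfaip8l2* 0.764% and 1.05%, and for *Tnfaip8l3* 3.62% and 2.54%. Without thinning they were 12.6% and 13.6%, 1.76% and 1.79%, and 10.8% and 7.53%. For *Tnfaip8l1* and *Tnfaip8l2* the thinned shares and the CPM pointed in opposite directions, so no order is read from them. Counts per cell were low throughout, with at most 5 UMIs of any member in 1 cell.

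Counted over the family, 1 of 4 members was at least 2-fold lower in *Tipe0*-/- cells, against 2.43% of all genes, and 0 of 4 were at least 2-fold higher, against 1.53% of all genes. The member that was lower is the targeted gene. The 3 paralogs summed to 979 UMIs, or 25.7 CPM, in WT and to 530 UMIs, or 22.2 CPM, in *Tipe0*-/- cells, a log2 ratio of -0.21 (-0.37 to -0.06). No paralog had an interval that lay above 0, singly or summed. In bulk sums of this kind, fewer cells of a type and less RNA per cell cannot be told apart, and the makeup of the libraries differed, so the members were next read within clusters.

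**Figure D1:**
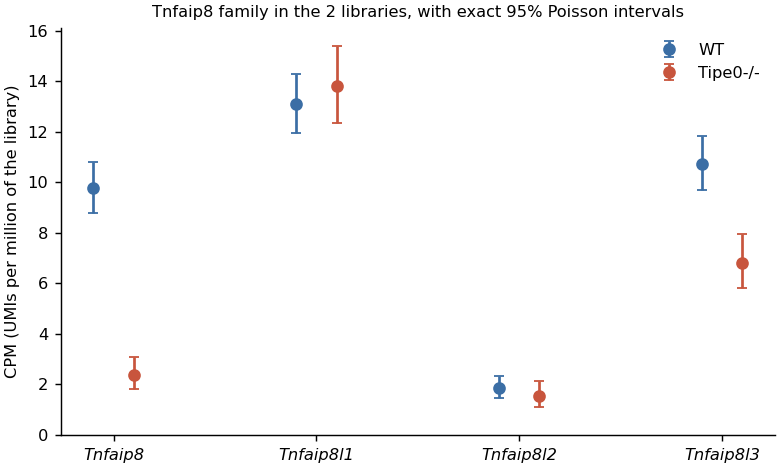
Level of each member in CPM (vertical axis, linear from 0) in the WT library (blue) and the *Tipe0*-/- library (red), with exact 95% Poisson intervals as bars. Only *Tnfaip8*, at 9.76 against 2.39 CPM, and *Tnfaip8l3*, at 10.7 against 6.82 CPM, have intervals that do not overlap.

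**Figure D2:**
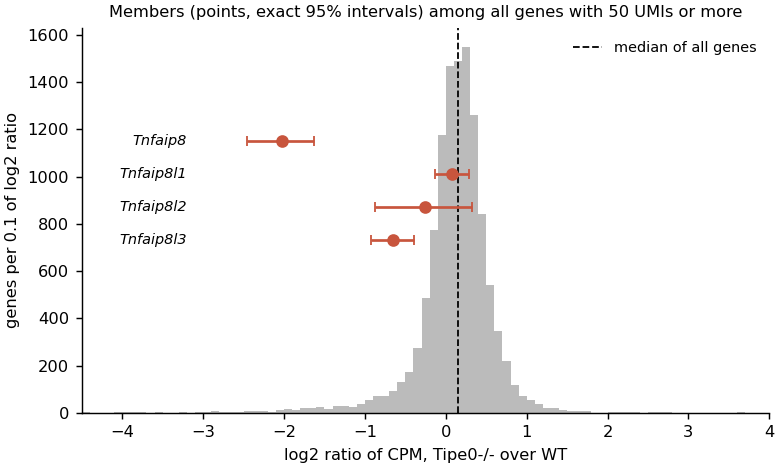
Histogram of the log2 ratio of CPM, *Tipe0*-/- over WT, for 11665 genes (grey; vertical axis, genes per bin), with the median of 0.15 as a dashed line. The members are drawn as red points with exact 95% intervals at heights that carry no value. *Tnfaip8* lies in the far left tail at -2.02, and *Tnfaip8l1* at 0.08 lies near the median.

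The cells fell into 13 clusters, of which 10 took the name of a cell type from marker genes and 3 stayed unnamed. The members were left out of the genes used for clustering, so they shaped no cluster. A cluster is given here with its leading gene, for example the goblet-like *Sval1* cluster. Goblet-like cells formed 3 clusters. The *Mt3* cluster was led by *Spdef*, *Creb3l1* and *Dll1*, regulators of the secretory and goblet fate, and the *Sval1* and *Zg16* clusters by products of mature goblet cells such as *Clca1*, *Fcgbp* and *Tff3*. Enterocyte-like cells formed an *Apoa4* cluster and an *Arg2* cluster. The 3 unnamed clusters were led by *Dtl*, with genes of DNA replication, by *Slc40a1*, which encodes the iron exporter ferroportin, and by *Akr1c19*.

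In WT, *Tnfaip8* was highest in lymphocyte-like cells and in the goblet lineage. It reached 62.3 CPM (42.01 to 88.9; 30 UMIs in 92 cells) in the lymphocyte-like cluster and 62.1 CPM (48.8 to 78.0; 74 UMIs in 196 cells) in the goblet-like *Sval1* cluster. These values differed by less than their counting error, and both lay above the intervals of all 11 other clusters. The goblet-like *Mt3* cluster followed at 20.8 CPM (17.5 to 24.5), with an interval above those of 9 of the clusters below it. The goblet-like *Zg16* cluster had 11.3 CPM (6.78 to 17.6). Stem-like cells had 8.70 CPM and the *Dtl* cluster 7.83 CPM, and neighbours in the order from there on had overlapping intervals. The lowest values were 2.32 CPM in enterocyte-like *Arg2* cells, 1.70 CPM in the *Slc40a1* cluster and 1.39 CPM (0.45 to 3.25; 5 UMIs in 429 cells) in enterocyte-like *Apoa4* cells. The range from the highest to the lowest cluster was 44.7-fold. When each cell was instead named from its own marker score, lymphocyte-like cells were at 20.9 CPM and goblet-like cells, at 27.8 CPM, came first. The 3 goblet-like clusters together held 62.9% of all *Tnfaip8* UMIs of the WT library, with 37.9% in *Mt3* cells alone. They made up 22.0% of WT cells, and *Mt3* cells 12.7%, the latter at a median depth of 15035 UMIs. The *Mt3* cluster had 21574 CPM of goblet markers and 1747 CPM of cycling markers in WT, against 183231 and 254 CPM in *Sval1* cells. The Paneth-like cluster had 21672 CPM of goblet markers, about as much as *Mt3* cells. Paneth markers summed to 10704 CPM in *Mt3* cells, 47889 CPM in *Sval1* cells and 405013 CPM in Paneth-like cells. The goblet name of the *Mt3* cluster is therefore less firm than that of *Sval1* cells. At resolution 1.2, 466 cells led by *Etv5*, *Creb3l1* and *Dll1* with 14 of 14 cycling markers stayed unnamed, and the goblet-like level was 36.8 CPM in place of 24.2 CPM.

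The share of cells with a *Tnfaip8* UMI was highest in the same 3 clusters. At 3000 UMIs per cell, a UMI was found in 15.2% (8.58 to 24.2%) of WT lymphocyte-like cells, 14.3% (9.71 to 19.98%) of goblet-like *Sval1* cells and 8.35% (5.92 to 11.4%) of goblet-like *Mt3* cells. In enterocyte-like *Apoa4* cells, which gave the lowest level, the share was 0.932% (0.255 to 2.37%). Without thinning the shares were 21.7%, 29.6%, 25.5% and 1.17%, at median depths of 4492, 5155.5, 15035 and 6778 UMIs per cell. At this matched depth the *Sval1* and *Mt3* shares lay above that of *Apoa4* cells, and the *Zg16* share of 4.07% (1.33 to 9.23%) overlapped it. Free RNA was not measured, and its part in these shares was not tested.

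Lymphocyte transcripts were present at low levels in every WT cluster, so the members were set beside the 18 lymphocyte markers. These markers summed to 10025 CPM in the WT lymphocyte-like cluster and to between 53.6 and 405 CPM in the other clusters. The goblet-like *Sval1* cluster had 238 CPM of lymphocyte markers and 62.1 CPM of *Tnfaip8*, and the *Slc40a1* cluster had 265 CPM of the markers and 1.70 CPM of *Tnfaip8*. In tuft-like cells, where the markers reached 405 CPM, *Tnfaip8* was at 4.73 CPM. Among WT goblet-like cells, the marker sum was 156 CPM in the 186 cells with a *Tnfaip8* UMI and 124 CPM in the 564 cells without one. A list of T cell markers summed to 217 CPM in tuft-like cells, 222 CPM in the *Slc40a1* cluster and 191 CPM in *Sval1* cells. The part of lymphocyte RNA in the *Tnfaip8* level of these clusters was not tested.

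**Figure D3:**
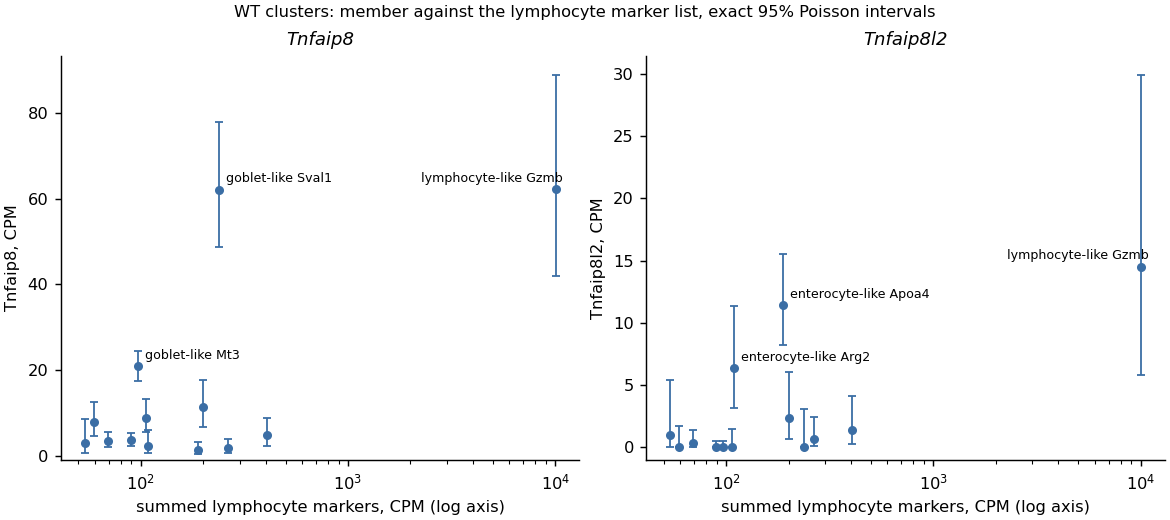
Level of *Tnfaip8* (left) and *Tnfaip8l2* (right) in CPM in each of the 13 WT clusters against the summed CPM of 18 lymphocyte markers (log axis), with exact 95% Poisson intervals. The goblet-like *Sval1* cluster has as much *Tnfaip8* as the lymphocyte-like cluster, at 62.1 and 62.3 CPM, with 238 against 10025 CPM of the markers, and the enterocyte-like *Apoa4* cluster stands out in the same way for *Tnfaip8l2* at 11.4 CPM.

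The lymphocyte-like cluster held 92 WT and 17 *Tipe0*-/- cells and split into 3 sub-clusters. A B lineage sub-cluster, with 9 of 11 B cell markers, had 97.1 CPM of *Tnfaip8* in WT (56.6 to 155; 17 UMIs in 37 cells). A T cell sub-cluster, with 12 of 15 T cell markers, had 82.3 CPM (41.1 to 147; 11 UMIs in 30 cells). Both kinds of lymphocyte thus carried *Tnfaip8*, at levels that did not differ beyond counting error. A further sub-cluster was led by epithelial genes and had 2 UMIs in 25 WT cells. Over the whole cluster, 12 enteroendocrine markers summed to 2063 CPM in WT and 10.8 CPM in *Tipe0*-/- cells. For 8 stromal and endothelial markers the sums were 210 and 21.6 CPM. Of the *Tipe0*-/- cells of the cluster, 7 were in the B lineage sub-cluster, 1 in the T cell sub-cluster and 9 in the epithelial one. The cluster was thus mixed in both libraries and in unlike proportions. The part of these transcripts and cells in its levels was not tested. *Tnfaip8l2* gave 5 UMIs in the WT B lineage cells and 1 in the T cells, which is too few to order them.

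The 57 *Tnfaip8* UMIs of the *Tipe0*-/- library followed the WT distribution in outline. Had each cluster kept its WT level, 257.5 UMIs would have been counted, so 22.1% remained. The UMIs were spread over 53 cells with at most 2 in any cell, and goblet-like cells held 43 of them, or 75.4%, against 62.9% in WT. Goblet-like cells were also a larger part of this library, at 25.8% of cells against 22.0% in WT. At WT levels they would have held 181.2 of the 257.5 UMIs. In the goblet-like *Mt3* cluster 28 UMIs were counted against 127 at the WT level (22.0%), and in the goblet-like *Sval1* cluster 10 against 44.0 (22.7%). Over the whole goblet-like class *Tnfaip8* was at 24.2 CPM in WT (234 UMIs) and 5.57 CPM in *Tipe0*-/- cells (43 UMIs), a log2 ratio of -2.11 (-2.63 to -1.65). Stem-like cells had 2 against 21.7 (9.22%) and Paneth-like cells 2 against 13.4 (14.9%). Lymphocyte-like cells, whose sub-cluster makeup differed between the libraries, had 1 against 5.76 (17.4%). In these clusters, as in all 13, the level in *Tipe0*-/- cells was below that in WT. The interval of the log2 ratio excluded 0 in 6 of the 13, while that of lymphocyte-like cells reached 0.06. Tuft-like cells kept 4 UMIs against 4.90 and goblet-like *Zg16* cells 5 against 10.2, and at these counts a reduction was not detectable. No *Tnfaip8* UMI was found in the enterocyte-like, *Slc40a1* or *Akr1c19* clusters of the *Tipe0*-/- library, where at most 2.48 were expected in any one.

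**Figure D4:**
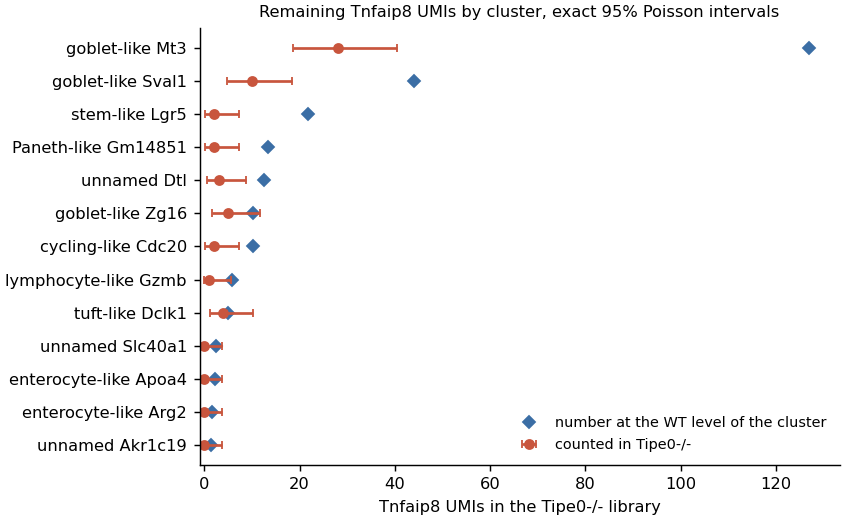
*Tnfaip8* UMIs counted in each cluster of the *Tipe0*-/- library (red, exact 95% Poisson intervals) beside the number that the WT level of that cluster would give (blue diamonds). The goblet-like *Mt3* cluster has 28 UMIs against 127, and 4 clusters have 0.

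What the remaining UMIs are was not tested. Of the 53 *Tipe0*-/- cells with a *Tnfaip8* UMI, 0 had a barcode also found in WT, and only 9 barcodes were shared in all. A 3′ tag counts any transcript that keeps the end of the gene, so it does not show whether a protein can be made. Genes of the Y chromosome, which could have marked RNA passing between the libraries, were expressed in both, with *Ddx3y*, an RNA helicase, at 28.7 CPM in WT and 38.1 CPM in *Tipe0*-/- cells. *Eif2s3y*, a translation factor subunit, was at 19.4 and 32.6 CPM, *Kdm5d*, a histone demethylase, at 15.7 and 16.8 CPM and *Uty*, a demethylase of another family, at 17.6 and 21.7 CPM. *Xist*, the RNA of the inactive X chromosome, gave 3 and 6 UMIs. Sex-linked transcripts therefore did not separate the libraries.

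*Tnfaip8l1* had a different distribution, with its peak in stem-like cells. There it was at 30.9 CPM in WT (24.4 to 38.5; 78 UMIs in 306 cells) and at 27.7 CPM in *Tipe0*-/- cells (21.5 to 35.0; 69 UMIs in 253 cells). The WT interval lay above those of 10 other clusters and overlapped those of tuft-like cells (14.7 to 27.4) and lymphocyte-like cells (5.84 to 29.9). Tuft-like cells followed at 20.3 CPM, goblet-like *Mt3* cells at 18.3 CPM and cycling-like cells at 17.9 CPM, and these did not differ among themselves beyond counting error. The lowest levels were 3.36 CPM in goblet-like *Sval1* cells, against 62.1 CPM for *Tnfaip8* in the same cells, and 1.39 CPM in enterocyte-like *Apoa4* cells. In none of the 13 clusters did the interval of the log2 ratio exclude 0. The level was lower in *Tipe0*-/- cells in 9 clusters and higher in 4. After thinning, 9.80% (6.71 to 13.7%) of WT stem-like cells and 4.74% of *Tipe0*-/- stem-like cells had a UMI. The unthinned shares, 20.9% and 21.3%, and the CPM did not show this gap, so no difference is read from it.

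*Tnfaip8l2*, the member best known from immune cells, was found in lymphocyte-like cells and also in enterocytes. In WT the lymphocyte-like cluster had 14.5 CPM (5.84 to 29.9; 7 UMIs) and the enterocyte-like *Apoa4* cluster 11.4 CPM (8.21 to 15.5; 41 UMIs), which did not differ beyond counting error. The enterocyte-like *Arg2* cluster had 6.37 CPM (3.18 to 11.4; 11 UMIs). In number, 57.7% of all *Tnfaip8l2* UMIs of the WT library came from *Apoa4* cells and 9.86% from lymphocyte-like cells, which made up 12.6% and 2.70% of WT cells. The goblet-like *Mt3*, goblet-like *Sval1*, Paneth-like, stem-like and *Dtl* clusters had 0 UMIs in WT. With 3 UMIs as the limit that a count of 0 allows, this permits up to 0.443 CPM in *Mt3* cells and up to 0.448 CPM in Paneth-like cells. When each cell was named from its own marker score, enterocyte-like cells came first at 7.49 CPM, with 5.91 CPM in lymphocyte-like cells.

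The *Tipe0*-/- library gave the same picture. *Tnfaip8l2* was at 14.2 CPM (8.99 to 21.3; 23 UMIs) in enterocyte-like *Apoa4* cells and at 6.90 CPM (2.24 to 16.1; 5 UMIs) in *Arg2* cells, and no cluster outside the enterocyte-like and lymphocyte-like ones had more than 2 UMIs. Within the enterocyte-like class the log2 ratio of *Tipe0*-/- over WT was 0.30 (-0.43 to 0.98). The library-wide value of -0.26 and this one differ in sign, and neither interval excludes 0. When both libraries were set to the same makeup of clusters, the library-wide value became 0.22.

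The enterocyte signal was set beside lymphocyte RNA and beside the neighbouring genes. Lymphocyte markers summed to 189 CPM in WT enterocyte-like *Apoa4* cells and to 38.8 CPM in those of the *Tipe0*-/- library, where *Tnfaip8l2* was at 11.4 and 14.2 CPM. The goblet-like *Sval1* cluster of WT, with 238 CPM of lymphocyte markers, had no *Tnfaip8l2* UMI. With 3 UMIs as the limit, this 0 permits up to 2.52 CPM, so a small part of lymphocyte RNA would not be seen there. In the *Tipe0*-/- library, enterocyte-like cells with a *Tnfaip8l2* UMI had 8.79 CPM of lymphocyte markers in 27 cells, from only 2 UMIs. Those without had 34.0 CPM in 273 cells, from 72 UMIs. In WT the values were 182 CPM in 44 cells and 161 CPM in 573 cells. A lymphocyte UMI was found in 59.1% of these WT cells with a *Tnfaip8l2* UMI and 31.2% of those without, at unlike depth. In the *Tipe0*-/- library the shares were 7.41% and 13.6%. The part of lymphocyte RNA in the *Tnfaip8l2* level was not tested. Of the 10 myeloid markers, only *C1qa* and *Csf1r* were at 0 in WT *Apoa4* cells, fewer than in any other WT cluster. In *Apoa4* cells of the *Tipe0*-/- library 7 were at 0. The sums were 7.25 and 6.78 CPM, the former the lowest of the WT clusters. The part of myeloid RNA in the *Tnfaip8l2* level was not tested. The gene nearest to *Tnfaip8l2*, *Lysmd1*, lies 3 bases from it, and whether the genes share any tags was not tested. *Lysmd1* ranged from 0.974 to 5.43 CPM over the WT clusters, with 3.39 CPM in *Mt3* cells, where *Tnfaip8l2* had no UMI.

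*Tnfaip8l3* was highest in the goblet-like *Zg16* and *Sval1* and enterocyte-like *Apoa4* clusters and lowest in Paneth-like cells. In WT it was at 31.4 CPM (23.5 to 41.1; 53 UMIs) in goblet-like *Zg16* cells, 26.8 CPM (21.7 to 32.7; 96 UMIs) in enterocyte-like *Apoa4* cells and 20.2 CPM (12.9 to 29.99; 24 UMIs) in goblet-like *Sval1* cells. Neighbours in this order overlapped, and the interval of the first lay above those of 10 other clusters. The *Slc40a1* cluster had 16.6 CPM and enterocyte-like *Arg2* cells 13.3 CPM. The largest goblet-like cluster, *Mt3*, had only 8.41 CPM (6.37 to 10.9) and ranked 8 in the order of clusters. The *Zg16* cluster had 62810 CPM of goblet markers in WT but also 3918 CPM of enterocyte markers. The latter summed to 4513 CPM in *Arg2* cells and 1181 CPM in *Sval1* cells, so the *Zg16* peak is not read as a goblet trait. Over whole classes, enterocyte-like cells were at 22.4 CPM and goblet-like cells at 13.9 CPM. The lowest values were 4.15 CPM in lymphocyte-like cells, 3.56 CPM in stem-like cells and 1.94 CPM (1.03 to 3.32) in Paneth-like cells. This is close to the reverse of *Tnfaip8l1*, which was at 30.9 CPM in stem-like cells.

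The lower level of *Tnfaip8l3* in *Tipe0*-/- cells was spread over clusters. It was below WT in 11 of 13 clusters and above it in 2, stem-like and *Akr1c19*. The interval of the log2 ratio excluded 0 in 3 clusters. These were tuft-like cells, with 10.4 CPM (22 UMIs) against 2.89 CPM (3 UMIs), Paneth-like cells, with 1.94 CPM (13 UMIs) against 0.267 CPM (1 UMI), and the *Slc40a1* cluster, with 16.6 CPM (49 UMIs) against 8.88 CPM (13 UMIs), the last only just. The tuft-like cells were not alike in the libraries. Tuft markers summed to 2493 CPM in WT and 1632 CPM in *Tipe0*-/- cells, and goblet markers to 4931 and 7705 CPM. The part of this in the tuft-like ratio was not tested. Over the whole goblet-like class the values were 13.9 CPM in WT and 8.42 CPM in *Tipe0*-/- cells, a log2 ratio of -0.71 (-1.17 to -0.28), and in enterocyte-like cells 22.4 and 16.2 CPM, a ratio of -0.45 (-1.03 to 0.07). With the same makeup of clusters in both libraries the library-wide ratio was -0.54, which leaves differences within a cluster, such as those of *Apoa4* cells, in place. With 1 library per genotype, a genotype effect and a difference between the libraries cannot be told apart.

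**Figure D5:**
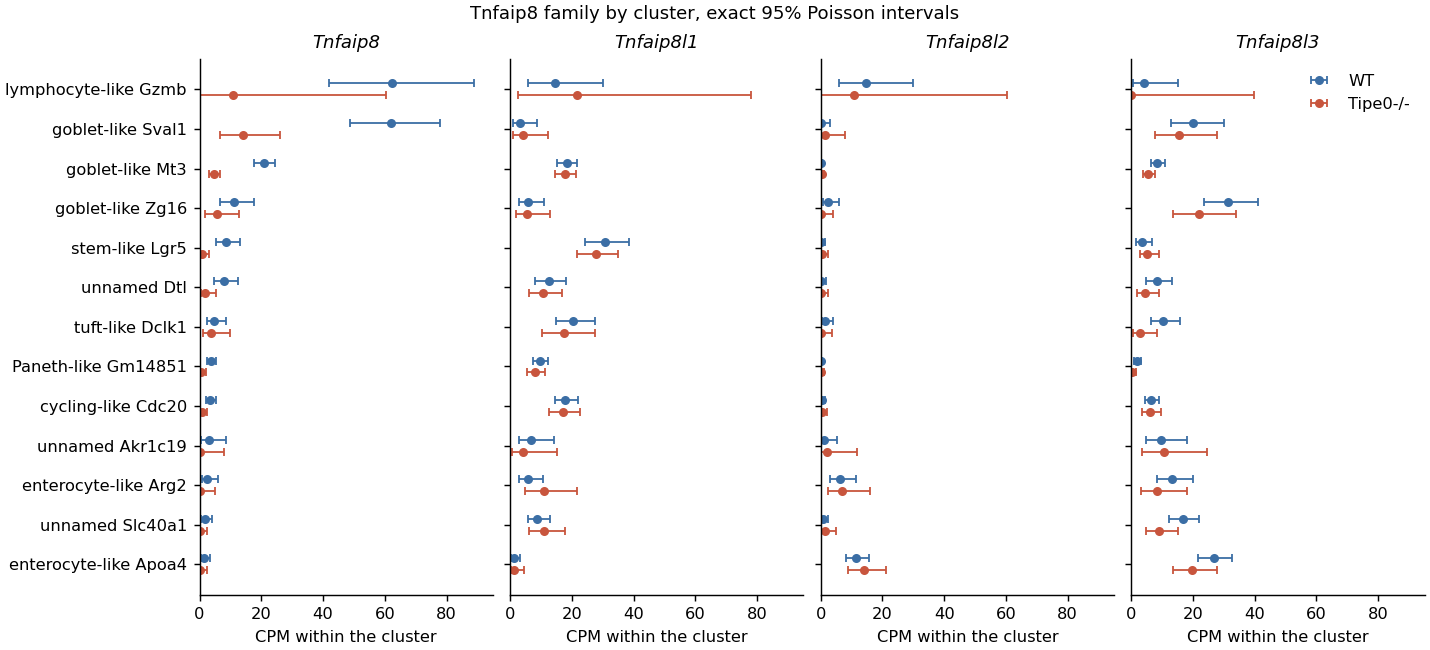
Level of each member in CPM (horizontal axes, linear from 0) in 13 clusters of the WT (blue) and *Tipe0*-/- (red) libraries, with exact 95% Poisson intervals; clusters are in the order of *Tnfaip8* in WT. *Tnfaip8* peaks at 62.3 and 62.1 CPM in lymphocyte-like and goblet-like *Sval1* cells, *Tnfaip8l1* at 30.9 CPM in stem-like cells, *Tnfaip8l2* in lymphocyte-like and enterocyte-like cells and *Tnfaip8l3* at 31.4 CPM in goblet-like *Zg16* cells. The *Zg16* cells also had 3918 CPM of enterocyte markers in WT.

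Hormone-producing enteroendocrine cells formed no cluster of their own in this setting. The 12 enteroendocrine markers had their highest WT sum, 2063 CPM, in the lymphocyte-like cluster, followed by 619 CPM in goblet-like *Sval1* cells. In the *Tipe0*-/- lymphocyte-like cluster the sum was 10.8 CPM. With 2000 variable genes chosen by the vst method, an enteroendocrine-like cluster of 43 WT and 27 *Tipe0*-/- cells appeared. *Tnfaip8l1* was at 30.7 CPM there in WT (15 UMIs), close to the 32.6 CPM of stem-like cells in the same setting, and at 18.6 CPM in *Tipe0*-/- cells (8 UMIs). *Tnfaip8* had 6 and 1 UMIs, *Tnfaip8l3* had 2 in each library, and *Tnfaip8l2* had 0 in both.

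Single cells rarely showed more than 1 member. Of the 301 WT cells with a *Tnfaip8* UMI, 48 also had a *Tnfaip8l1* UMI, or 15.9%, against 12.6% of all WT cells, and 35 had a *Tnfaip8l3* UMI, or 11.6%, against 10.8% of all cells. Only 2 had a *Tnfaip8l2* UMI. Within WT goblet-like cells, 36 of 186 cells with *Tnfaip8* also had *Tnfaip8l1* (19.4%, against 15.3% of all goblet-like cells). *Tnfaip8l2* and *Tnfaip8l3* met in 13 of the 44 WT enterocyte-like cells with *Tnfaip8l2* (29.5%, against 16.7%), and in 1 of 27 such cells of the *Tipe0*-/- library (3.70%, against 11.3%). The cells with a *Tnfaip8l2* UMI were deeper than those without in WT, with medians of 12995.5 and 6436 UMIs. Joint detection rises with depth, and the part of depth in these shares was not tested.

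The genes whose WT levels over the 13 clusters were most like each member were ranked by Pearson's r of log2(CPM + 1) among 11001 genes. These are descriptions over 13 points that share a library and differ in depth. For *Tnfaip8* they were *Fam134b*, an endoplasmic reticulum autophagy receptor, at r = 0.97, *Glt1d1* at 0.93 and *Tmem229b* at 0.93. In the *Tipe0*-/- library the r of *Fam134b* was 0.67, and its own level hardly differed between the libraries, at 17.3 and 17.1 CPM. Those of *Glt1d1* and *Tmem229b* were 0.30 and 0.59. For *Tnfaip8l1* they were *Cntrob*, a centriole protein, at 0.98, *Ctc1*, a telomere maintenance factor, at 0.96 and *Mcat*, a mitochondrial fatty acid synthesis enzyme, at 0.95, with 0.80, 0.79 and 0.31 in the *Tipe0*-/- library. For *Tnfaip8l2* they were *Stk10*, a serine/threonine kinase of lymphocytes, at 0.97, *Hspa12a* at 0.92 and *Snx29* at 0.91, with 0.86, 0.58 and 0.34 in the *Tipe0*-/- library. For *Tnfaip8l3* they were *Ssfa2* at 0.95, *Trim31*, a ubiquitin ligase, at 0.94 and *Tm9sf2* at 0.94, with 0.94, 0.80 and 0.81 in the *Tipe0*-/- library. When genes needed 200 UMIs in WT, *Glt1d1*, *Tmem229b*, *Stk10* and *Hspa12a* were no longer ranked.

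Genes next to each member were read as a local check, taking the 5 nearest on each side with at least 50 UMIs. None of the 10 neighbours of *Tnfaip8* was 2-fold different. The nearest below it, *Dmxl1*, was at 18.3 CPM in WT and 22.2 CPM in *Tipe0*-/- cells, and the nearest above it, *Hsd17b4*, a peroxisomal enzyme of fatty acid oxidation, at 22.2 and 30.7 CPM. Their log2 ratios were 0.28 (0.11 to 0.44) and 0.47 (0.32 to 0.61), and all 10 lay between -0.20 for *Dtwd2* and 0.81 for *Srfbp1*. *Dmxl1* lies 13954 bases and *Hsd17b4* 21028 bases from *Tnfaip8*, and the others lie 223826 to 3188601 bases away. The fall of *Tnfaip8* was thus not shared by *Dmxl1* or *Hsd17b4*, and the others are too distant to describe the locus. The 10 neighbours of *Tnfaip8l2* lay between -0.27 for *Lysmd1* and 0.40 for *Mllt11*. Beside *Tnfaip8l1*, *Lrg1*, a secreted glycoprotein of the acute phase, was at 26.9 CPM in WT and 5.52 CPM in *Tipe0*-/- cells, a log2 ratio of -2.28 (-2.56 to -2.02), and the other 9 lay within 2-fold. The neighbours of *Tnfaip8l3* lie 205251 to 646347 bases away. Of these, *Sh2d7*, at 470596 bases, was at 4.59 and 1.76 CPM, a ratio of -1.37 (-1.91 to -0.89), and the others lay within 2-fold.

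Because the family acts on phosphoinositides, 54 genes of phosphoinositide metabolism were read in the same way. Of the 50 with at least 50 UMIs, 1 was at least 2-fold lower, near the 2.43% of all genes, and 0 were at least 2-fold higher, against 1.53% of all genes. Their median log2 ratio was 0.13, against 0.15 for all genes. The gene that was lower was *Pik3cg*, the gamma catalytic subunit of PI3K found mainly in leukocytes, at 4.64 CPM in WT and 2.30 CPM in *Tipe0*-/- cells (log2 ratio -1.003, -1.48 to -0.57). Lymphocyte-like cells made up 2.70% of WT and 0.847% of *Tipe0*-/- cells, and the lymphocyte markers summed to 263 and 71.1 CPM over all cells. Tuft-like cells made up 4.64% and 2.49%, and the tuft markers summed to 165 and 90.4 CPM. The part of either cell type in the level of *Pik3cg* was not tested. The 3 listed genes with the most UMIs were *Pitpna*, a phosphatidylinositol transfer protein, at 161 and 143 CPM, *Plcb3*, a phospholipase C, at 119 and 136 CPM and *Pik3r1*, a regulatory subunit of PI3K, at 75.6 and 110 CPM. The log2 ratio of *Pik3r1* was 0.54 (0.46 to 0.61), and that of *Pitpna* was -0.17 (-0.24 to -0.11).

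*Tnfaip8* was named as a gene induced by TNF, so 42 genes of TNF and NF-kB signaling were read as well. Of the 39 with at least 50 UMIs, none was 2-fold lower or 2-fold higher, where 2.43% and 1.53% of all genes were, so a count of 0 is near the share of all genes. Their median log2 ratio was 0.05, against 0.15 for all genes. The 3 with the most UMIs were *Sod2*, the mitochondrial superoxide dismutase, at 97.4 CPM in WT and 93.4 CPM in *Tipe0*-/- cells, *Casp8*, the initiator caspase of death receptors, at 76.3 and 92.8 CPM, and *Nfkbia*, the inhibitor of NF-kB, at 75.6 and 98.5 CPM. The largest difference of the list was in *Nfkbiz*, an atypical inhibitor of NF-kB, which was chosen after its values were seen. It was at 61.6 and 38.4 CPM, a log2 ratio of -0.68 (-0.79 to -0.57), about the size of that of *Tnfaip8l3*.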

How the data were processed

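Ileal epithelial cells of WT and *Tipe0*-/- mice were profiled with the Chromium Single Cell 3′ v2 kit. Cell Ranger was used by the authors to align reads to mm10, and the deposited values are raw, unnormalized UMI counts of each gene in each retained cell. The methods name DNAse I and Dispase for digestion, and the labels collagenase and dispase. From the counts, UMIs were summed per library or cluster and given as CPM with exact 95% Poisson intervals, log2 ratios were taken with 0.5 added to each sum and exact binomial intervals, and shares of cells were given with Clopper-Pearson intervals after thinning to 3000 UMIs. A count of 0 was read as up to 3 UMIs. Clusters came from Seurat 5.3.0 (R 4.3.3), with log-normalization, 14 principal components, a resolution of 0.8 and 532 of 582 variable genes by mean and dispersion, leaving out the members and the 117 genes of the study's genotype comparison.

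A cluster was named after the cell class whose markers had the highest mean z-score where at least 3 of its markers were found in at least 10% of the cells and at 1.5 times the share of other cells, and was left unnamed where another class led its 10 leading genes. Stem and cycling markers, and B cell and plasma cell markers, were each counted as 1 lineage, the latter after the sub-clusters had been seen. Scrublet, run through Scanpy 1.11.5, called 15 WT (0.441%) and 3 *Tipe0*-/- cells (0.150%), so few that the calls were not used and no cell was left out, and an alternative left out the 190 and 111 cells with the highest scores. Gene positions came from GENCODE for GRCm38, in which 27645 of the 27998 gene IDs were found. The ratio across genes was checked on simulated counts.

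The named genes are the members, their neighbours, from each list the genes past 2-fold and the 3 with the most UMIs, the 3 most like each member, and the sex-linked genes, and *Nfkbiz* was added after its values were seen. The members, lists, markers and rules were chosen with earlier results of these data known. With 1 library per genotype no test was run.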

Additional observations from a re-analysis of the deposited data

How the results depend on the processing

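No paired analysis was possible because each genotype has 1 library. For the same reason no replicate could be left out. Of 238 alternative values, 84 of main results and 129 of levels by class and highest r values stayed close to the reported value. Close meant within its counting interval, or within 1.5 times it for counts and shares of genes. For the median of all genes it meant within their quartiles, and for r within a fixed margin. Another 18 and 7 moved further, and 0 turned the direction of a difference whose interval excluded 0. The log2 ratio of *Tnfaip8* lay between -2.18 and -1.93 and that of *Tnfaip8l3* between -0.80 and -0.54 under the alternatives for scaling, makeup, doublets, mitochondrial share and lymphocyte-like cells. The removal of lymphocyte-like cells was added after the data were seen. The mean over cells of log2(1 + UMIs per 10000) is another scale, on which the differences were -0.0773 and -0.0344. Values on it were still held to the interval of the log2 ratio, so whether they stayed or moved carries no meaning. Without cells with a mitochondrial share of 10% or more, *Tnfaip8l2* stood at -0.87 instead of -0.26, and the cause was not tested.

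With a filter of 1 UMI, 7.14% of genes were at least 2-fold lower and 8.54% at least 2-fold higher, and with 200 UMIs 1.35% and 0.610%. In WT, *Tnfaip8* in goblet-like cells was 20.9 CPM with vst genes, 36.8 CPM at resolution 1.2 and 27.8 CPM with single cells named by their top marker score, against 24.2 CPM as reported, and that last setting gave 20.9 CPM in lymphocyte-like cells against 62.3. The class with the highest level was the same under all alternatives for *Tnfaip8l1*, where it was stem-like, and for *Tnfaip8l3*, where it was enterocyte-like. For *Tnfaip8* and *Tnfaip8l2* it became goblet-like and enterocyte-like in place of lymphocyte-like when each cell was named alone. In unthinned cells, the log2 ratio of the share of cells with at least 2 UMIs was -2.84 for *Tnfaip8* and 0.43 for *Tnfaip8l1*. It was -2.18 for *Tnfaip8l2*, from 1 *Tipe0*-/- and 11 WT cells, and -1.02 for *Tnfaip8l3*. With at least 1 UMI the unthinned values were -1.73, 0.11, 0.03 and -0.52, in the same order. The reported values, from thinned cells with at least 1 UMI, were -1.84, -0.19, 0.46 and -0.50. Thinning to 2000 UMIs moved *Tnfaip8l1* to 0.42. The cause of these shifts was not tested. At 1.5-fold, 5 phosphoinositide genes were lower and 1 was higher, and 3 genes of the TNF and NF-kB list were lower, beside 5.06% and 8.62% of all genes. Depth limits *Tnfaip8l2* most, with 71 and 37 UMIs.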
